A study of Mus musculus with 12 samples.

Results

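The leukocyte adhesion receptors are the surface molecules that a vessel wall or stromal cell presents to a passing white blood cell. The 7 genes examined were *Icam1*, *Vcam1*, *Alcam*, *Madcam1*, *Sele*, *Selp* and *Cd44*, chosen by name, and all 7 had a row among the 35727 genes of the bulk RNAseq count table. Cardiac fibroblasts were taken from pooled neonatal mouse hearts, enriched for THY1-positive cells by magnetic selection, and cultured in endothelial growth medium (EGM2). The study removed PECAM1-positive cells, which include endothelial cells and platelets, ahead of that selection when it characterized induced cells, but its methods give this step as optional and do not state it for these libraries. *Sox17*-*Erg* cultures received retroviruses carrying *Sox17* and *Erg*, and are labelled iEC (induced endothelial cell). Control cultures are labelled fibroblast and carry the name of the pMX retroviral vector, but the labels do not say what that vector held. RNA came from cultures collected on Day 3, on Day 7 and after 4 weeks. Control and *Sox17*-*Erg* cultures of each time point make 6 groups, each with 2 libraries. The labels do not say whether the 2 libraries of a group came from separate isolations, so p-values measure the spread between these libraries, which may be technical. The methods name no sorting of cells before RNA isolation, so that each library may mix converted and unconverted cells, and in such bulk samples fewer cells of a type and less RNA per cell cannot be told apart.

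White blood cells leave the blood in steps. The selectins *Sele* (E-selectin) and *Selp* (P-selectin) catch sugars on rolling cells. The immunoglobulin-family ligands *Icam1* and *Vcam1* then hold leukocyte integrins firmly. *Alcam* binds CD6 on T cells, *Madcam1* binds the gut-homing integrin of lymphocytes, and *Cd44* anchors hyaluronan and can also serve as a ligand for E-selectin. Endothelial cells raise *Icam1*, *Vcam1* and *Sele* in response to TNF or IL-1 through NF-kB, and *Vcam1*, *Icam1*, *Alcam* and *Cd44* are also made by fibroblasts. In mature endothelium the ETS factor ERG is known to hold *Icam1* down by interfering with NF-kB at its promoter. None of this background is tested by transcript counts.

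The promoters of 3 members are shown because these genes are known NF-kB or ETS targets or changed most here. Each is the 300 bases from 250 before to 50 after the RefSeq gene start (GRCm38.p6), written along the gene, and capitals mark GGAA, the core that ETS factors such as ERG bind, and GGNNNTTCC, a short form of the NF-kB site, on either strand. Where the motifs overlap the capitals run together.
*Icam1*, chr9:21015690-21015989, plus strand: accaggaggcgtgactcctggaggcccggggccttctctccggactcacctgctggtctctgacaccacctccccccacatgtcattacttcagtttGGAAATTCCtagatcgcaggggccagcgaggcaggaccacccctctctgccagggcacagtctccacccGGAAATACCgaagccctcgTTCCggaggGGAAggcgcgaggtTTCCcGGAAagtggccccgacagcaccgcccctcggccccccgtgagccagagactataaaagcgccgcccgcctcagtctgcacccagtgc
*Selp*, chr1:164115014-164115313, plus strand: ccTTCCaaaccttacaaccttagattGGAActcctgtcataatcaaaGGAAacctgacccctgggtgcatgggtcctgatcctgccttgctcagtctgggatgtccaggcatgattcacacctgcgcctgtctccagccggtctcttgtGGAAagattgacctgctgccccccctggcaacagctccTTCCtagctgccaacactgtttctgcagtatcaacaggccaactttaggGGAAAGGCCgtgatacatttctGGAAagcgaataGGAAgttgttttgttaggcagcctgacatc
*Cd44*, chr2:102901616-102901915, minus strand: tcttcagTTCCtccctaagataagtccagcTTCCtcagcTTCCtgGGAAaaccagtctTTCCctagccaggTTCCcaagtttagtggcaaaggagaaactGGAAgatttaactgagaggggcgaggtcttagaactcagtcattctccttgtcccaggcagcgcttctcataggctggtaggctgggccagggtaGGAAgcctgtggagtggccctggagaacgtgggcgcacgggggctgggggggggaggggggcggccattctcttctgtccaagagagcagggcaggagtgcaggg
*Icam1* held 7 matches to GGAA and 2 to GGNNNTTCC, the NF-kB form beginning at positions -153 and -84 from the gene start. Of 32851 promoters of the same length, 95.985% held GGAA at least once (median 3 matches) and 18.477% held GGNNNTTCC. As many as 7 GGAA matches occurred in 8.021% of them, and as many as 2 NF-kB matches in 2.155%. *Selp* and *Cd44* had 8 GGAA matches each, as many as 3.717% of promoters, and *Selp* had 1 NF-kB match at position -14, where *Cd44* had 0. Of the members not printed, *Sele* had 3 GGAA and 1 NF-kB match (position -145), *Madcam1* had 9 and 2, and *Alcam* 1 and 0. The longer ETS form CCGGAAG (8.858% of promoters) and the SOX core ACAAT (31.025%) were found in none of these 6 windows. A match of letters is not a bound site, and binding was not measured in these libraries.

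Libraries held between 19011635 and 41240449 counts on genes. Levels are given as CPM, the counts of a gene relative to the library total, scaled by TMM factors that correct for genes that dominate a library. *Sox17* was at 0 to 0.416 CPM in the 6 control libraries and at 432 to 1036 CPM in the 6 *Sox17*-*Erg* libraries, and *Erg* at 0.0728 to 2.27 against 17.1 to 65.2 CPM, as the labels state. Of the members, 6 passed the filter on low counts and were tested among 15506 genes, and *Madcam1* did not. A gene was called at an adjusted p under 0.05 in edgeR's quasi-likelihood test, and every adjusted p below is from that test with Benjamini-Hochberg adjustment unless another is named.

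*Sox17*-*Erg* cultures moved the members in opposite directions. *Cd44* and *Vcam1* were higher at all 3 time points, while *Icam1* was lower at Day 7 and 4 weeks, *Selp* at Day 7 and *Alcam* at 4 weeks. At Day 3, 2 of the 6 tested members were called higher, beside 7.19% of all tested genes, and 0 were called lower, beside 5.13%. The 0 stands beside 1 member called lower by DESeq2 (*Selp*), and 3 of the 6 members had an unadjusted p under 0.05 in either direction at Day 3. At Day 7, 2 were higher (9.48% of all genes) and 2 lower (7.93%). At 4 weeks, 2 were higher (11.9%) and 2 lower (11%). With 6 members these counts describe the members and do not set them apart from other genes. The shares over all genes depend on the fit. At Day 3, edgeR called 1115 of 15506 genes higher and 795 lower, and DESeq2 1410 and 1290. Fewer were called whenever a library of Day 3 was left out.

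**Figure D1:**
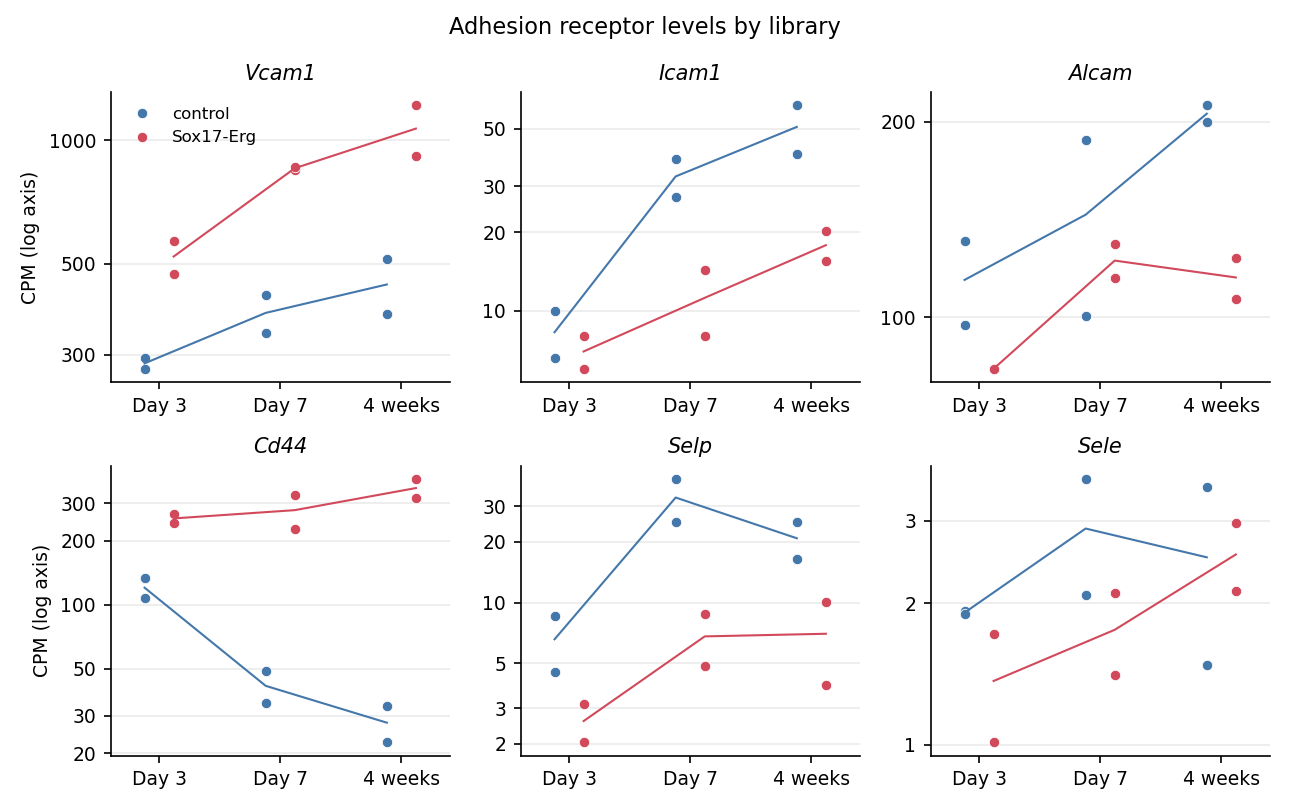
CPM of the 6 tested members on log axes against time point, with 1 point per library and lines through the means of 2 libraries. *Vcam1* and *Cd44* points of *Sox17*-*Erg* lie above those of control at every time point, and *Selp* points lie below them, whereas *Icam1* separates from Day 7 on, with 8.02 and 14.4 CPM in *Sox17*-*Erg* against 27.3 and 38.2 in control at Day 7.

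*Vcam1* (vascular cell adhesion molecule, the ligand of integrin alpha 4 beta 1) had the highest level per length of the members in every library. The gene (ENSMUSG00000027962) lies on the minus strand at chr3:116109949-116129688. Control libraries had 277 and 295 CPM at Day 3, 419 and 340 by Day 7 and, at 4 weeks, 377 and 515. *Sox17*-*Erg* libraries had 569 and 473 CPM at Day 3, 849 and 862 by Day 7 and, at 4 weeks, 1219 and 919. Both *Sox17*-*Erg* libraries were above both control libraries at each time point, as for 14.6% of all tested genes. The log2 fold change was 0.87 (SE 0.20, adjusted p = 0.029) at Day 3, 1.17 (SE 0.21, adjusted p = 0.0054) at Day 7 and 1.26 (SE 0.21, adjusted p = 0.0026) at 4 weeks, which is 2.40-fold at the last time point. The 3 effects did not differ from each other by the test of the difference, with 4 weeks minus Day 3 at 0.40 on the log2 scale (95% interval -0.25 to 1.04, adjusted p = 0.55). The Day 3 call was lost without control replicate 1 or control replicate 2 (adjusted p = 0.15 in both) or *Sox17*-*Erg* replicate 1 (adjusted p = 0.24) of that day.

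*Icam1* (intercellular adhesion molecule, the ligand of the leukocyte integrins LFA-1 and Mac-1) went the other way. The gene (ENSMUSG00000037405) lies at chr9:21015985-21028817 on the plus strand. Control libraries had 6.59 and 9.94 CPM at Day 3, 27.3 and 38.2 by Day 7 and, at 4 weeks, 61.4 and 40.0. *Sox17*-*Erg* libraries had 5.97 and 7.97 CPM at Day 3, 8.02 and 14.4 by Day 7 and, at 4 weeks, 20.1 and 15.5. The groups overlapped at Day 3 and were apart at the later time points, where all 4 *Sox17*-*Erg* libraries were below all 4 control libraries. The share of all genes apart at these later time points was not counted, and 13.6% lay below control at all 3. The log2 fold change was -0.24 (95% interval -1.04 to 0.56, adjusted p = 0.70) at Day 3, -1.56 (SE 0.34, adjusted p = 0.015) at Day 7 and -1.51 (SE 0.34, adjusted p = 0.012) at 4 weeks, 2.85-fold lower. The Day 7 call was lost without control replicate 2 (adjusted p = 0.087) or *Sox17*-*Erg* replicate 1 (adjusted p = 0.12) of that day, and in a fit of Day 7 alone (adjusted p = 0.058). The 4-week call was lost without control replicate 1 (adjusted p = 0.085) or *Sox17*-*Erg* replicate 2 (adjusted p = 0.075).

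*Alcam* (activated leukocyte cell adhesion molecule, minus strand at chr16:52248996-52454074, ENSMUSG00000022636) was abundant in both groups. Control libraries had 131 and 97.3 CPM at Day 3, 187 and 100 by Day 7 and, at 4 weeks, 200 and 212. *Sox17*-*Erg* libraries had 83.3 and 83.4 CPM at Day 3, 115 and 130 by Day 7 and, at 4 weeks, 107 and 124. The groups overlapped at Day 7 only, and the largest gap was at 4 weeks. The log2 fold change was -0.45 (95% interval -1.03 to 0.12, adjusted p = 0.27) at Day 3, -0.24 (95% interval -0.81 to 0.34, adjusted p = 0.57) at Day 7 and -0.84 (SE 0.26, adjusted p = 0.044) at 4 weeks. The 4-week call stood close to the threshold and was lost in 10 of the 12 fits that left out 1 library, with adjusted p between 0.052 and 0.21.

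*Madcam1* (mucosal vascular addressin, plus strand at chr10:79664559-79668537, ENSMUSG00000020310) was at the limit of detection. Its 8 counts lay in 3 control libraries, with 1 count in replicate 2 at Day 3, 1 in replicate 2 at Day 7 and 6 in replicate 1 at 4 weeks. All 6 *Sox17*-*Erg* libraries had 0 counts, which allows up to 3 counts in each, or between 0.0827 and 0.152 CPM over these libraries. These limits cover counting error only, and no difference was detectable at this depth.

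*Selp* (P-selectin, which endothelial cells and platelets store in granules) lies on the plus strand at chr1:164115264-164150026 (ENSMUSG00000026580). Control libraries had 8.62 and 4.53 CPM at Day 3, 41.2 and 25.2 by Day 7 and, at 4 weeks, 25.2 and 16.5. *Sox17*-*Erg* libraries had 2.02 and 3.15 CPM at Day 3, 4.85 and 8.74 by Day 7 and, at 4 weeks, 10.1 and 3.89. Both *Sox17*-*Erg* libraries were below both control libraries at each time point, as for 13.6% of all tested genes. The log2 fold change was -1.35 (95% interval -2.59 to -0.10, adjusted p = 0.14) at Day 3, -2.30 (SE 0.52, adjusted p = 0.017) at Day 7, or 4.92-fold lower, and -1.57 (95% interval -2.73 to -0.42, adjusted p = 0.054) at 4 weeks. In a fit that blocked on the replicate number, the 4-week difference of *Selp* was -1.61 (adjusted p = 0.041), and the Wald test of DESeq2 gave -1.56 (adjusted p = 0.011) at 4 weeks and -1.37 (adjusted p = 0.049) at Day 3. The Day 7 call was lost without control replicate 1 (adjusted p = 0.069) or *Sox17*-*Erg* replicate 1 (adjusted p = 0.14) of that day. Leaving out 1 library moved the 4-week difference of *Selp* between -1.07 and -2.43, and without *Sox17*-*Erg* replicate 1 of 4 weeks it was called (adjusted p = 0.037).

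*Sele* (E-selectin, made by endothelium activated by cytokines, plus strand at chr1:164048234-164057677, ENSMUSG00000026582) was low throughout, with 20 to 96 counts per library. Control libraries had 1.93 and 1.90 CPM at Day 3, 3.69 and 2.09 by Day 7 and, at 4 weeks, 1.48 and 3.54. *Sox17*-*Erg* libraries had 1.01 and 1.72 CPM at Day 3, 1.41 and 2.11 by Day 7 and, at 4 weeks, 2.12 and 2.96. The groups overlapped at Day 7 and 4 weeks, and *Sele* was not called at any time point. The log2 fold change was -0.48 (95% interval -1.60 to 0.65, adjusted p = 0.57) at Day 3, -0.73 (95% interval -1.81 to 0.36, adjusted p = 0.33) at Day 7 and 0.03 (95% interval -1.03 to 1.10, adjusted p = 0.97) at 4 weeks. A change within these intervals was not detectable at this depth.

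*Cd44* (the hyaluronan receptor, minus strand at chr2:102811141-102901665, ENSMUSG00000005087) showed the largest differences of the members at Day 7 and 4 weeks. Control libraries had 133 and 107 CPM at Day 3, 48.7 and 34.4 by Day 7 and, at 4 weeks, 22.5 and 33.3. *Sox17*-*Erg* libraries had 268 and 242 CPM at Day 3, 329 and 228 by Day 7 and, at 4 weeks, 392 and 316. Both *Sox17*-*Erg* libraries were above both control libraries at each time point, as for 14.6% of all tested genes, and the gap was wider at each later time point. The mean went from 120 to 41.6 to 27.9 CPM in control and from 255 to 279 to 354 CPM in *Sox17*-*Erg*. The log2 fold change was 1.08 (SE 0.26, adjusted p = 0.029) at Day 3, 2.75 (SE 0.27, adjusted p = 0.00036) at Day 7 and 3.67 (SE 0.28, adjusted p = 5.2e-05) at 4 weeks, or 2.12-fold, 6.71-fold and 12.7-fold. Counts per gene sum all isoforms, so that the standard and the variant-exon forms of CD44 were not separated. The Day 3 call was lost without any 1 of the 4 libraries of that day (adjusted p between 0.061 and 0.21).

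**Figure D2:**
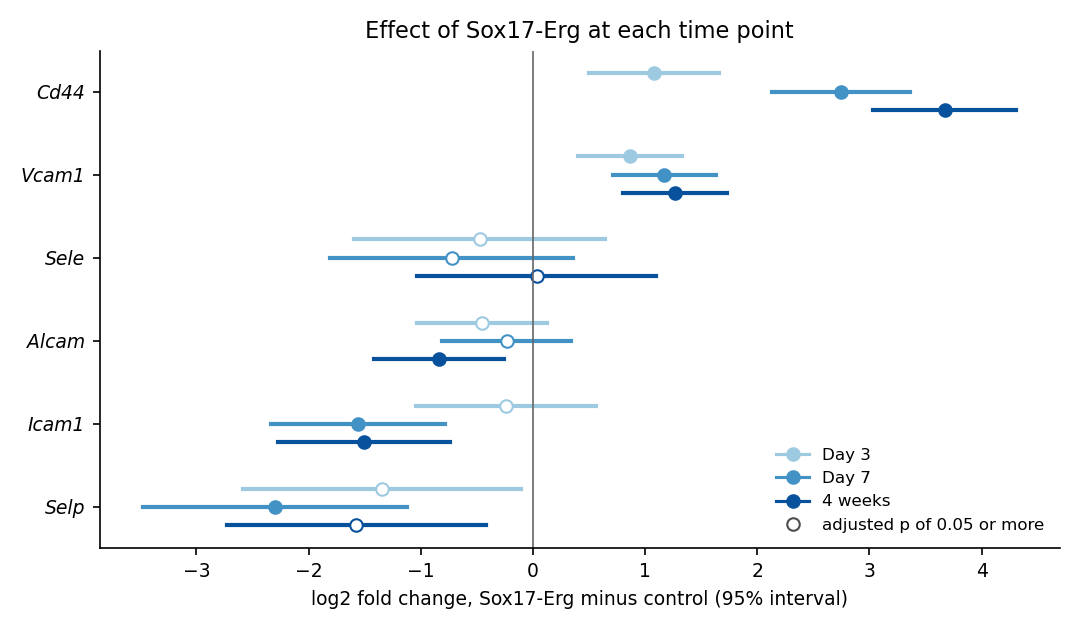
Fitted log2 fold change of *Sox17*-*Erg* over control for each tested member at Day 3, Day 7 and 4 weeks, with 95% intervals of the edgeR fit, filled where the adjusted p was under 0.05. *Cd44* spreads from 1.08 to 3.67 with time, *Vcam1* stays between 0.87 and 1.26, and the filled points of *Icam1*, *Selp* and *Alcam* all lie below 0.

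A single time point of 2 against 2 libraries cannot go below p = 0.33 in an exact two-sided permutation test. Permuting the libraries within time points over all 3 time points together allows a smallest p of 0.0093. *Vcam1*, *Cd44* and *Selp* each reached this smallest value, with mean log2 differences of 1.10, 2.50 and -1.76. Any gene with both *Sox17*-*Erg* libraries on the same side of both control libraries at all 3 time points reaches it. Of all tested genes, 14.6% lay above control in this way and 13.6% below. The exact permutation p was 0.019 for *Icam1* (mean difference -1.10), 0.046 for *Alcam* (-0.48) and 0.28 for *Sele* (-0.35). The 6 values are unadjusted, and this test ignores the replicate numbers. With labels exchanged only between libraries of the same number and time point, the smallest p is 0.031, which *Vcam1*, *Cd44*, *Selp* and *Icam1* reached in this exact permutation, against 0.094 for *Alcam* and 0.31 for *Sele*. Every gene on the same side of control at all 3 time points, as counted above, reaches this value too.

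Levels of different genes were compared as CPM per kilobase of the longest coding transcript. In the control libraries at Day 3 the order was *Vcam1* (82.5 ± 3.64, SD, n = 2), *Cd44* (21.4 ± 3.27), *Alcam* (18.9 ± 3.94), *Icam1* (3.26 ± 0.936), *Selp* (1.91 ± 0.842), *Sele* (0.657 ± 0.00790) and *Madcam1* (0.0161 ± 0.0228). *Cd44* and *Alcam* overlapped in that order. By 4 weeks the control order was *Vcam1* (128 ± 28.1), *Alcam* (34.1 ± 1.48), *Icam1* (20.0 ± 5.99), *Selp* (6.07 ± 1.80), *Cd44* (4.97 ± 1.36), *Sele* (0.861 ± 0.50) and *Madcam1*, and *Selp* and *Cd44* were not separated. *Cd44* had moved from rank 2 to rank 5 of the 7 in control libraries. In *Sox17*-*Erg* libraries the order was *Vcam1*, *Cd44*, *Alcam*, *Icam1*, *Selp*, *Sele*, *Madcam1* at all 3 time points, and *Selp* and *Sele* overlapped at Day 3. At 4 weeks the *Sox17*-*Erg* levels were 308 ± 61.3 for *Vcam1*, 63.0 ± 9.52 for *Cd44*, 19.1 ± 1.97 for *Alcam*, 7.03 ± 1.29 for *Icam1*, 2.04 ± 1.28 for *Selp* and 0.873 ± 0.204 for *Sele* (CPM per kilobase).

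Shares of the summed CPM per kilobase do not depend on the scaling between libraries. *Vcam1* made up 61.0% and 67.4% of the members' sum in the control libraries at Day 3 and 61.1% and 70.2% at 4 weeks, against 71.7% and 68.9%, then 78.0% and 75.7%, in *Sox17*-*Erg*. The share of *Icam1* was 13.6% and 7.47% in control and 1.76% and 1.75% in *Sox17*-*Erg* at 4 weeks. *Cd44* took 2.25% and 2.81% in control against 15.5% and 16.1% in *Sox17*-*Erg* at that time. Within a library, *Vcam1* per kilobase was 4.48 and 9.41 times *Icam1* in the control libraries at 4 weeks and 44.2 and 43.3 times in the *Sox17*-*Erg* libraries. At Day 3 the same ratio was 30.8 and 21.7 in control and 69.7 and 43.4 in *Sox17*-*Erg*.

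**Figure D3:**
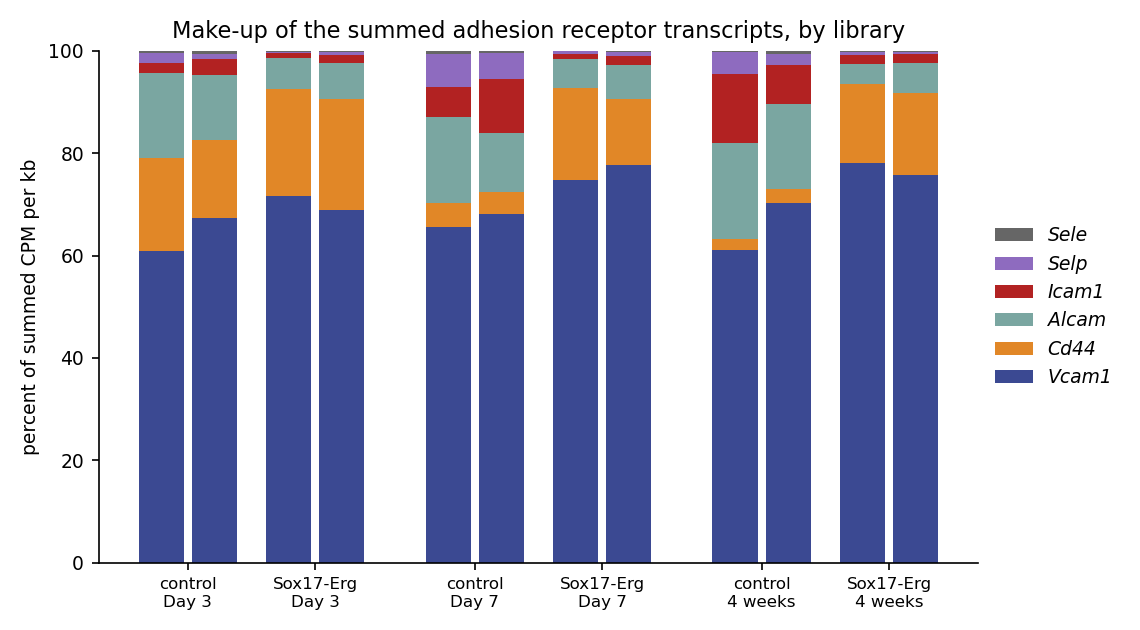
Percent of the summed CPM per kilobase that each member took, 1 stacked bar per library (*Madcam1*, at 0.06% or less, is not visible). *Cd44* shrinks to 2.25% and 2.81% in control at 4 weeks while holding 15.5% and 16.1% in *Sox17*-*Erg*, and *Icam1* takes 13.6% and 7.47% in control but 1.76% and 1.75% in *Sox17*-*Erg*.

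Over time in culture the control libraries themselves changed. From Day 3 to 4 weeks, 4 of the 6 tested members were higher in control (13.9% of all genes were) and 1 was lower (12.6%). *Icam1* was 6.16-fold higher (log2 2.62, SE 0.36, adjusted p = 0.0014) and *Cd44* 4.32-fold lower (log2 -2.11, SE 0.27, adjusted p = 0.0011). *Selp* (log2 1.66, adjusted p = 0.041), *Alcam* (0.85, adjusted p = 0.038) and *Vcam1* (0.64, adjusted p = 0.046) were called close to the threshold. *Vcam1* lost that call with the replicate block (adjusted p = 0.053). Of the 12 fits that left out 1 library, *Alcam* lost the call in 8, *Vcam1* in 7 and *Selp* in 6, with adjusted p between 0.052 and 0.25. Among these were, for all 3, the fits without either control library or either *Sox17*-*Erg* library of Day 3 and without control replicate 2 of 4 weeks. *Alcam* and *Selp* also lost it without control replicate 1 of 4 weeks, *Alcam* without either *Sox17*-*Erg* library of 4 weeks and *Vcam1* without either of Day 7. By Day 7 the control libraries had already changed in *Icam1* (log2 1.99, adjusted p = 0.014), *Selp* (2.33, adjusted p = 0.030) and *Cd44* (-1.53, adjusted p = 0.013), when 4.70% of all genes were called higher and 4.06% lower than at Day 3. The Day 7 calls of all 3 were lost without either control library of Day 3 or control replicate 2 of Day 7, and that of *Selp* also without control replicate 1 of Day 7 (adjusted p between 0.064 and 0.18). From Day 7 to 4 weeks edgeR called 0 members in control, 0 of them had an unadjusted p under 0.05, DESeq2 called 0 as well, and 0.393% of all genes were called.

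In *Sox17*-*Erg* libraries from Day 3 to 4 weeks, *Vcam1* (log2 1.04, SE 0.20, adjusted p = 0.0065) and *Icam1* (1.35, SE 0.35, adjusted p = 0.019) were higher, beside 15.1% of all genes, and 0 members were lower, beside 15.6%. *Cd44* changed by 0.47 (95% interval -0.10 to 1.05, adjusted p = 0.19) and *Selp* by 1.43 (95% interval 0.19 to 2.67, adjusted p = 0.078, or 0.019 by the Wald test of DESeq2). *Icam1* lost this call without *Sox17*-*Erg* replicate 1 of Day 3 (adjusted p = 0.11), replicate 2 of Day 3 (0.051) or replicate 1 of 4 weeks (0.094). Between Day 3 and Day 7, edgeR called 0 members in *Sox17*-*Erg* (2 at an unadjusted p under 0.05, 1 by DESeq2), beside 3.42% of all genes, and between Day 7 and 4 weeks again 0 (0 at an unadjusted p under 0.05, 0 by DESeq2), beside 1.82%.

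The difference in effect between time points was tested directly. Only *Cd44* passed among the 6 tested members in edgeR, with its effect at 4 weeks larger than at Day 3 by 2.59 on the log2 scale (SE 0.37, 95% interval 1.76 to 3.41, adjusted p = 0.0083), when 3.21% of all genes were called in either direction. Its effect at Day 7 exceeded that at Day 3 by 1.66 (95% interval 0.84 to 2.48, adjusted p = 0.17), and 0.0838% of all genes were called in that test. From Day 7 to 4 weeks the difference was 0.92 (95% interval 0.11 to 1.74, adjusted p = 0.71), with 0.0387% of all genes called. The effect on *Icam1* changed by -1.27 between Day 3 and 4 weeks (95% interval -2.37 to -0.17, adjusted p = 0.22), and with the replicate number as a block within each time point by -1.26 (adjusted p = 0.015).

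Across the 12 libraries, the genes whose log2 CPM followed a member most closely were listed by Pearson's r as a description, since the libraries share treatment and time. *Cd44* was followed by *Megf10* (r = 0.989), *Ptprb* (0.988), which encodes the endothelial phosphatase VE-PTP, and *Mfsd2a* (0.987), a lipid transporter of brain endothelium. *Ptprb* averaged 36.6 CPM in control and 725 CPM in *Sox17*-*Erg* at 4 weeks. *Vcam1* was followed by *Rnf125* (0.973), *Bmp6* (0.970), a secreted BMP ligand, and *Serpinb9* (0.969), a granzyme inhibitor. For *Icam1* they were *Sdf4* (0.989), *Ms4a4d* (0.981) and *Cd302* (0.977), for *Selp* *Vcpip1* (0.948), *Abhd11os* (0.940) and *Vwa3a* (0.939), for *Alcam* *Ccdc126* (0.937), *Plcxd2* (0.927) and *Dsel* (0.908), and for *Sele* *Hsd3b2* (0.882), *Etv1* (0.869) and *Sdc3* (0.865).

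Of the other molecules of the vessel wall that leukocytes use to arrest and cross, more were called higher than lower. At Day 3, 5 of the 13 tested were higher and 1 lower, followed by 6 and 1 on Day 7 and by 8 and 1 at 4 weeks. Their median log2 fold change was 0.57, 0.34 and 0.65 at the 3 time points, beside 0.01, 0.01 and -0.01 over all tested genes. Over all tested genes, 7.19%, 9.48% and 11.9% were called higher and 5.13%, 7.93% and 11% lower at these time points. The same shares stand beside the list and marker counts below. *Icam2*, the constitutive endothelial relative of *Icam1* that also binds LFA-1, was at 1.16 and 0.879 CPM in control and 8.91 and 4.57 CPM in *Sox17*-*Erg* at Day 3, and at 0.301 and 0.122 against 12.7 and 14.9 CPM at 4 weeks. Its log2 fold change was 2.70 (SE 0.42, adjusted p = 0.0063) at Day 3 and 5.91 (SE 0.50, adjusted p = 7.8e-05) at 4 weeks. *Icam2* and *Icam1*, both ligands of LFA-1, thus lay on opposite sides of control at 4 weeks. *Cdh5* (VE-cadherin, the endothelial junction protein) rose most, by 10.17 on the log2 scale at 4 weeks (SE 1.67, adjusted p = 0.0027), from 0.251 and 0.569 CPM to 496 and 394 CPM. The control libraries differed among themselves in *Cdh5* at Day 3 (0.910 and 14.3 CPM) and at Day 7 (0.230 and 8.08 CPM), with replicate 2 the higher, and at Day 7 the endothelial genes *Tie1* (0.154 and 4.94 CPM) and *Vwf* (0.806 and 11.4 CPM) were split the same way. *Mcam* (CD146) was higher by 2.51 at Day 3 (adjusted p = 0.015) and by 5.80 at 4 weeks (SE 0.58, adjusted p = 0.0002). *Emcn* (endomucin, a sialomucin of venous endothelium that impedes leukocyte binding) was higher by 4.00 at Day 3 (SE 0.69, adjusted p = 0.0094). *Cd34*, a sialomucin of vessels and fibroblast progenitors, was the 1 lower gene at each time point, at -2.58, -1.90 and -1.53 (adjusted p = 0.0059, 0.0091 and 0.016).

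Leukocyte-side partners of the members were measured as a check on white blood cells and on integrins that other cells share. Of 8 tested, 2, 3 and 2 were higher at the 3 time points and 0 lower, with medians of 0.11, -0.16 and 0.39. DESeq2 also called 0 lower, and at an unadjusted p under 0.05 edgeR had 0, 0 and 1 lower. The called genes were *Spn* (CD43, a leukocyte sialomucin) at all 3 time points, with 4.25 at Day 7 (adjusted p = 0.00083) and 5.90 at 4 weeks (adjusted p = 0.00012), *Itga9* (the alpha 9 integrin, a *Vcam1* receptor) at Day 7 (1.14, adjusted p = 0.0097) and 4 weeks (1.48, adjusted p = 0.0019), *Itga4* at Day 7 (1.71, adjusted p = 0.021) and *Itgal* at Day 3 (1.37, adjusted p = 0.048). *Itgal* was not called with the replicate block (adjusted p = 0.056) or by DESeq2 (adjusted p = 0.070), while the block called *Itga4* at 4 weeks as well (1.17, adjusted p = 0.0032). *Spn* stayed low in level, at 6.76 and 8.56 CPM in the *Sox17*-*Erg* libraries at 4 weeks.

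The inflammatory target genes that TNF or IL-1 switch on did not move together. At Day 3, 4 of the 17 tested were higher and 3 lower, followed by 3 and 3 on Day 7 and by 2 and 3 at 4 weeks, with medians of 0.15, -0.23 and -0.10. With the replicate block 5 were lower at 4 weeks, adding *Irf1* (-0.43, adjusted p = 0.027) and *Tlr2* (-0.89, adjusted p = 0.027). The block also called *Ptgs2* higher at Day 3 (1.40, adjusted p = 0.012) and 4 weeks (0.91, adjusted p = 0.034). DESeq2 added *Ccl7* as higher at Day 3 (0.95, adjusted p = 0.026). *Cx3cl1* (fractalkine, a membrane-bound chemokine that captures monocytes) was higher at all 3 time points, by 1.20, 1.27 and 1.66 (adjusted p = 0.0096, 0.0028 and 0.00044), and reached 414 and 304 CPM in *Sox17*-*Erg* against 104 and 124 in control at 4 weeks. *Ccl2* (a monocyte chemokine) was higher at Day 3 (1.74, adjusted p = 0.00042) and Day 7 (1.02, adjusted p = 0.0015), *Il6* at Day 3 (2.39, adjusted p = 0.042) and Day 7 (2.35, adjusted p = 0.042), and *Cxcl5* at Day 3 (2.27, adjusted p = 0.025). The last 2 genes were low in level. At Day 3 *Il6* was at 1.24 and 0.509 CPM in control and 4.605 and 4.697 CPM in *Sox17*-*Erg*, and *Cxcl5* at 0.1455 and 0.185 against 0.7085 and 0.9049 CPM. *Plaur* (the urokinase receptor) was higher at 4 weeks (1.48, adjusted p = 0.043). *Csf1* (macrophage colony-stimulating factor) was lower at all 3 time points and fell by 1.75 at 4 weeks (adjusted p = 0.00015), as was *Birc3*, an NF-kB-induced inhibitor of cell death (-0.87, -0.84 and -1.18, adjusted p = 0.038, 0.030 and 0.0051). *Tlr2* was lower at Day 3 and Day 7 (-1.21 and -1.22, adjusted p = 0.042 and 0.027) and *F3* (tissue factor) at 4 weeks (-1.85, adjusted p = 0.0035).

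The receptors and adaptors of TNF, IL-1, interferon gamma and LPS signals that were called were lower, apart from *Chuk*. At Day 3, 1 of the 17 tested was higher and 1 lower, beside 7.19% and 5.13% of all genes. On Day 7 it was 1 and 3 (9.48% and 7.93% of all genes). At 4 weeks 0 were higher, also at an unadjusted p under 0.05, and 5 lower (11.9% and 11% of all genes). The medians were -0.27, -0.02 and -0.21. *Il1r1*, the IL-1 receptor, was lower at all 3 time points (-0.79, -0.94 and -1.06, adjusted p = 0.038, 0.014 and 0.0059), from 193 and 198 CPM in control to 89.0 and 98.2 CPM at 4 weeks. *Tnfrsf1a*, the main TNF receptor, was lower at Day 7 (-0.69, adjusted p = 0.025) and 4 weeks (-0.76, adjusted p = 0.012), as with the replicate block at Day 3 (-0.60, adjusted p = 0.030), and *Myd88*, the adaptor of IL-1 and Toll-like receptors, at Day 7 (-0.65, adjusted p = 0.040) and 4 weeks (-0.93, adjusted p = 0.0069). *Ifngr1*, which carries the interferon gamma signal, was lower at 4 weeks (-1.06, adjusted p = 0.028). *Chuk* (IKK alpha) was higher by 0.33 and 0.30 at Day 3 and Day 7 (adjusted p = 0.046 and 0.048), and with the replicate block no gene of the list was called higher at either time. Of 13 tested NF-kB subunits and their inhibitors, edgeR and DESeq2 called 0 at Day 3 and Day 7 (1 each at an unadjusted p under 0.05 in edgeR), and 3 were higher at 4 weeks, *Nfkbiz* (0.77, adjusted p = 0.040), *Cyld* (0.43, adjusted p = 0.050) and *Rela* (0.39, adjusted p = 0.040), when 11.9% of all genes were. *Nfkb2* was called higher at 4 weeks with the replicate block (0.34, adjusted p = 0.041) and by DESeq2 (0.35, adjusted p = 0.034). The medians of the list were -0.10, 0.17 and 0.28.

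Among the proteins that tie adhesion receptors to actin or shed them from the surface, 0 of 11 were called at Day 3 by edgeR (2 at an unadjusted p under 0.05, 1 by DESeq2), 1 was higher and 1 lower at Day 7, and 1 was higher and 2 lower at 4 weeks. DESeq2 called 4 higher and 2 lower at Day 7, and 2 higher at 4 weeks. The medians were 0.03, 0.18 and 0.30. *Ezr* (ezrin, which links ICAM1, VCAM1 and CD44 to actin) was lower at Day 7 (-1.50, adjusted p = 0.048) and 4 weeks (-1.46, adjusted p = 0.044), and with the replicate block at Day 3 as well (-1.23, adjusted p = 0.0067), *Rdx* (radixin) was lower at 4 weeks (-0.80, adjusted p = 0.026), and *Actn1* (alpha-actinin) was higher at Day 7 (0.88, adjusted p = 0.024) and 4 weeks (0.87, adjusted p = 0.019).

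The genes that make, cut and bind hyaluronan, the ligand of CD44, changed in both directions. At Day 3, 1 of the 16 tested was higher and 2 lower, followed by 2 and 2 on Day 7 and by 3 and 3 at 4 weeks, with medians of 0.00, -0.54 and 0.24. DESeq2 called 4 lower at Day 7, adding *Lyve1* (-1.65, adjusted p = 0.032) and *Spp1* (-2.75, adjusted p = 0.015). It added *Hmmr* as higher at 4 weeks (1.50, adjusted p = 0.017). The replicate block also called *Lyve1* lower at Day 7 (-1.62, adjusted p = 0.0080). The hyaluronan-degrading *Cemip* was lower at all 3 time points (-3.73, -1.91 and -2.46, adjusted p = 0.0027, 0.020 and 0.0051), from 1515 and 1668 CPM in control to 86.6 and 152 CPM at Day 3. Its relative *Cemip2* was higher (1.82, 3.24 and 3.29, adjusted p = 0.0037, 0.00014 and 6.9e-05). *Ugdh*, which makes the precursor of hyaluronan, was lower (-0.55, -0.82 and -0.97, adjusted p = 0.016, 0.0016 and 0.00042). *Vcan*, the hyaluronan-binding proteoglycan versican, was higher at Day 7 (1.59, adjusted p = 0.019) and 4 weeks (1.74, adjusted p = 0.0098). *Hyal2*, a hyaluronidase, was higher (0.82, adjusted p = 0.0057) and *Tnfaip6*, a hyaluronan-binding protein induced by TNF, lower (-1.38, adjusted p = 0.040) at 4 weeks.

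**Figure D4:**
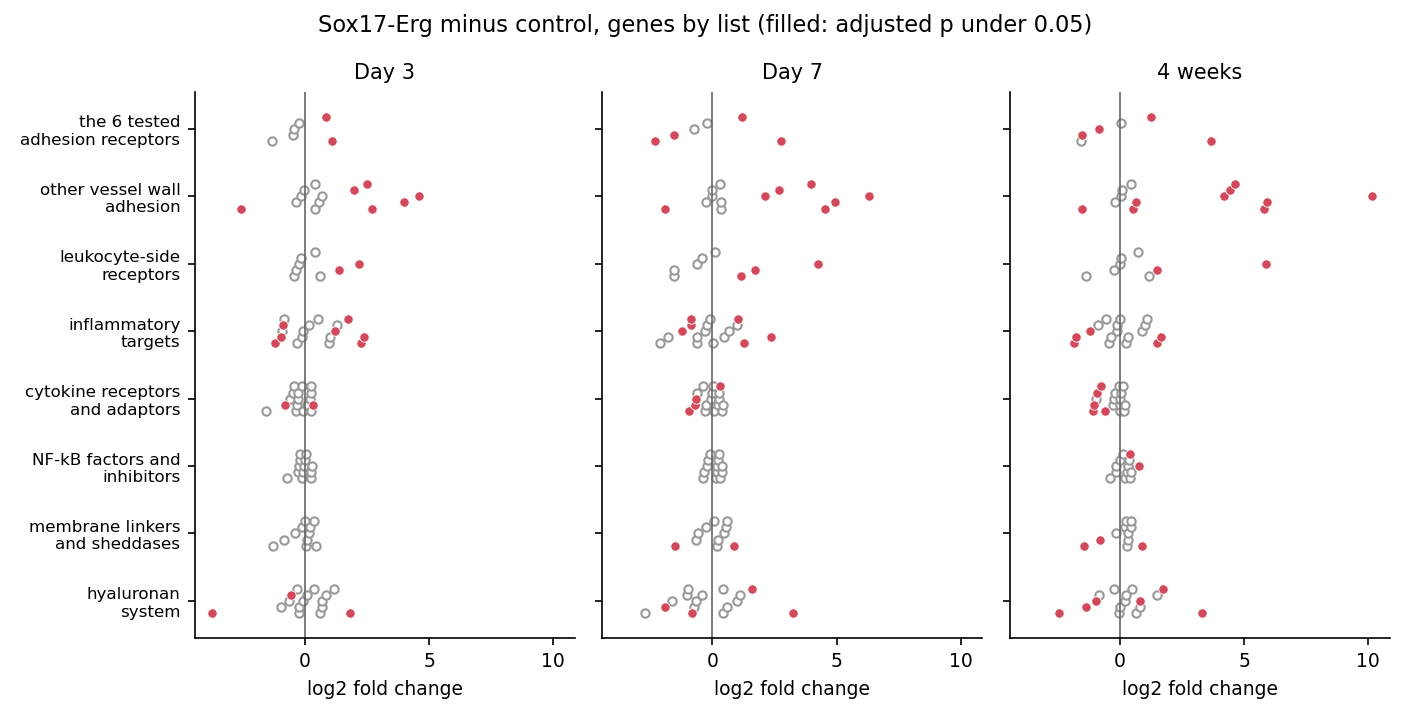
Log2 fold change of *Sox17*-*Erg* over control at each time point (panels) for the 6 tested members and the tested genes of 7 lists (rows), 1 point per gene, filled where the adjusted p was under 0.05. Filled points of other vessel wall molecules reach 10.17 (*Cdh5*, 4 weeks), whereas the NF-kB row has no filled point at Day 3 or Day 7.

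Markers of other cells moved with some of these results. Summed endothelial markers (12 genes) were 519 to 629 CPM in control and 738 to 742 CPM in *Sox17*-*Erg* at Day 3, 787 to 1087 and 1097 to 1166 CPM at Day 7, and 1225 to 1886 and 1358 to 1531 CPM at 4 weeks. Of the 11 tested at 4 weeks, 7 were higher, among them *Cdh5* and *Kdr* (3.26, adjusted p = 0.0011), and 1 was lower, *Eng* (-1.15, adjusted p = 0.050). In control most of the 4-week sum was *Eng*, at 968 and 1501 CPM against 576 and 536 in *Sox17*-*Erg*, and *Flt1*, at 236 and 361 against 181 and 211 CPM (log2 -0.61, adjusted p = 0.10). In *Sox17*-*Erg*, *Cdh5* gave 496 and 394 CPM of the sum. The overlap of the sums rests on *Eng* and *Flt1*. Smooth muscle and pericyte markers (6 genes) were summed at 2312 to 2487 CPM in control and 3259 CPM in both *Sox17*-*Erg* libraries at Day 3, 378 to 746 and 1388 to 3043 CPM at Day 7, and 616 to 1483 and 2610 to 3012 CPM at 4 weeks. Of the 6, 1 was higher at Day 3, 5 at Day 7 and 4 at 4 weeks, alongside *Vcam1* and *Cd44*, and 1 was lower at 4 weeks. That 1, *Kcnj8*, was not called with the replicate block (adjusted p = 0.052) or by DESeq2 (adjusted p = 0.12). Epicardial and mesothelial markers (7 genes) were at 286 to 735 CPM in control and 140 to 229 CPM in *Sox17*-*Erg* at Day 3, 515 to 989 and 226 to 323 CPM at Day 7, and 878 to 1386 and 162 to 254 CPM at 4 weeks. Of these 7 markers 1, 3 and 6 were lower and 0 higher, alongside the lower *Icam1*, *Selp* and *Alcam*. With the replicate block 5 were lower at Day 3 and 6 at Day 7, and by DESeq2 4 and 5. Fibroblast markers (10 genes) were at 33160 to 40430 CPM in control and 26550 to 42310 CPM in *Sox17*-*Erg* at Day 3, 25260 to 33630 and 32660 to 35920 CPM at Day 7, and 17030 to 20580 and 13070 to 13740 CPM at 4 weeks, so the sums overlapped at Day 3 and Day 7. Of the 10, 1 was lower at Day 3 (4 with the replicate block, 5 by DESeq2), 3 were lower and 1 higher at Day 7, and 4 were lower and 1 higher at 4 weeks. Cardiomyocyte markers (8 genes) were at 896 to 1539 and 335 to 417 CPM at Day 3, 655 to 896 and 372 to 473 CPM at Day 7, and 1087 to 1376 and 688 CPM at 4 weeks, with 1, 3 and 6 lower. The part that such cells had in the members' differences was not tested.

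Leukocyte and macrophage markers (10 genes) summed to 295 to 454 CPM in control and 307 to 333 CPM in *Sox17*-*Erg* at Day 3 and to 915 to 1316 and 282 to 455 CPM at Day 7, and none of the 10 was called by edgeR or DESeq2 at any time point (0 at an unadjusted p under 0.05 in edgeR). At 4 weeks they spread from 47.8 to 432 CPM in control and from 69.7 to 347 CPM in *Sox17*-*Erg*. White blood cells carry *Cd44*, and their part in its difference was not tested. Platelet and megakaryocyte markers (6 genes) summed to 85.5 to 90.0 CPM in control and 59.3 to 78.5 CPM in *Sox17*-*Erg* at Day 3, 29.1 to 44.1 and 41 to 47.1 CPM at Day 7, and 13.0 to 20.7 and 42.0 to 43.8 CPM at 4 weeks. Most of the sum was *Itgb3*, an integrin subunit that other cells share, which was higher at 4 weeks (1.54, adjusted p = 0.0041), and of the 4 tested no other was called by edgeR at any time point. *Ppbp* and *Gp9* did not pass the filter. *Pf4* was at 7.07 and 5.99 CPM in control and 1.82 and 1.58 CPM in *Sox17*-*Erg* at Day 7 (log2 -1.93, adjusted p = 0.097, or 0.035 by DESeq2). *Selp* and the summed leukocyte and macrophage markers were lower at Day 7 as well. *Itga2b* (log2 -0.79, adjusted p = 0.20) and *Gp1ba* (-0.85, adjusted p = 0.24) were not called then. The part of platelets in the *Selp* difference was not tested. Exons of antisense genes overlap those of *Icam1*, *Vcam1* and *Selp* in the annotation, and these antisense genes were not analysed here.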

How the data were processed

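Bulk RNAseq of 12 libraries was analysed. The authors demultiplexed reads with bcl2fastq 2.20.0, trimmed high GC content with BBDuk and quantified transcripts with Salmon (version not given in the sources used here), with build mm10 per the labels. They deposited estimated counts per gene, rounded to whole numbers and not scaled for library size. Symbols and positions came from GENCODE M21 (GRCm38), promoters from RefSeq (GRCm38.p6), where 6 of the 7 members matched. *Vcam1* had no entry.

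The 7 members and all lists were chosen with earlier results of these data known. The quasi-likelihood model of edgeR 4.0.16 (R 4.3.3) was fitted to counts (TMM, filterByExpr requiring 10 counts and a total of 15, model with 1 mean per group, 6 residual degrees of freedom) on 15506 genes, and p-values were adjusted over all of them. The fit was tested on simulated data. Intervals are 95% from the fitted standard error. Differences in effect were tested as interactions. Single members were tested by exact two-sided permutation within time points on log2 CPM (prior count 2).

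Named genes were the members, *Sox17* and *Erg*, at most 3 called genes in each direction per list and comparison, and the 3 genes most correlated with each member. A gene so named may be given at further time points. Other genes, such as *Flt1* and *Pf4*, were named where a sum, the filter, an alternative fit or a split between replicates turned on them. Samples were grouped from their titles. Libraries of equal replicate number were treated as possible pairs in the replicate blocks, though the labels state no pairing. Their deviations from the group means correlated by 0.19, 0.30 and 0.17 across genes at the 3 time points. Genes are not independent replicates, and each value rests on 1 deviation per group, so these values do not settle the pairing. The main model does not include it. Counts of replicates differed beyond counting error (chi-square per degree of freedom 27.5 to 70.4). Totals of 19011635 to 41240449 counts set the depth. Alternatives were the DESeq2 1.42.0 Wald test and size factors, no filter, single time points, adjusted p under 0.01, replicate blocks, leaving out each library and a prior count of 0.5. The block within time points for differences in effect and the permutation within pairs were chosen after seeing the data, as were the further alternatives for lists.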

Additional observations from a re-analysis of the deposited data

Results flagged for a closer look

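The effect of *Sox17*-*Erg* on *Cd44* differed between time points by the interaction test. It was larger at 4 weeks than at Day 3 by 2.59 on the log2 scale (SE 0.37, adjusted p = 0.0083 in edgeR). Both *Sox17*-*Erg* libraries were above both control libraries at each of the 3 time points, as for 14.6% of all tested genes. Groups of 2 libraries are too small for a test of single outlying libraries.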

How the results depend on the processing

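The calls of *Cd44* and *Vcam1* at Day 7 and 4 weeks, and the difference in *Cd44* effect between 4 weeks and Day 3, kept their direction and stayed under the threshold in every alternative run for them, each left-out library included. The replicate block changed no effect call of the 6 members other than *Selp* at 4 weeks, which it added (-1.61, adjusted p = 0.041). At adjusted p under 0.01, 0 members were higher at Day 3, and 0 were lower at Day 7 and at 4 weeks. Of all 15506 tested genes, 304 were higher at Day 3, 410 lower at Day 7 and 742 lower at 4 weeks at that threshold. Without the low-count filter and by DESeq2, 1 member was lower at Day 3, beside 1333 of 25680 and 1290 of 15506 genes. With each time point fitted alone 1 was lower at Day 7, beside 479 of 14576. In *Sox17*-*Erg* from Day 3 to Day 7, 2 members were higher without the filter and 1 by DESeq2. For the difference in effect between Day 7 and Day 3, 1 member was higher without the filter and by DESeq2, and 1 was lower without the filter and with the replicate block within each time point. The same 2 settings gave 1 lower member for 4 weeks minus Day 3. The cause was not tested. Leaving out 1 library at a time gave 0 to 2 higher members at Day 3, 0 to 2 lower at Day 7 and 0 to 2 lower at 4 weeks. It gave 0 to 2 higher and 0 to 1 lower in control at Day 7 against Day 3, 1 to 4 higher at 4 weeks against Day 3, and 1 to 3 higher in *Sox17*-*Erg* at 4 weeks against Day 3. At Day 3, fewer of all tested genes were called too whenever a library of that day was left out. Uncalled differences that reversed without 1 library are given with the range over those fits. They were *Icam1* at Day 3 (-0.51 to 0.049, reversed without control replicate 2 of that day), *Alcam* at Day 7 (-0.62 to 0.26, control replicate 1 of that day), *Sele* at 4 weeks (-0.48 to 0.79, control replicate 1 or *Sox17*-*Erg* replicate 2 of 4 weeks), *Sele* in control from Day 3 to 4 weeks (-0.36 to 0.89, control replicate 2 of 4 weeks), and the change from Day 3 to 4 weeks in the *Sele* effect (-0.0016 to 1.30, control replicate 1 of 4 weeks) and in the *Selp* effect (-1.05 to 0.29, control replicate 2 or *Sox17*-*Erg* replicate 2 of Day 3, control replicate 1 or *Sox17*-*Erg* replicate 2 of 4 weeks). Permutation p-values were the same with a prior count of 0.5, and exchanging labels within pairs took *Alcam* over the threshold (exact permutation p = 0.094). Genes called in the 14 lists moved by over 1.5 times under DESeq2 or the replicate block in 23 counts, among them mesothelial markers lower at Day 3 (1, against 4 by DESeq2 and 5 with the block). Over all alternatives, with 12 fits that left out 1 library among them, 301 list counts moved in this way and 1295 did not. With 2 libraries per group, changes smaller than the intervals given could not be seen, and *Sele* and *Madcam1* rest on few counts.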
